A study of Mus musculus with 16 samples.

Results

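The genes described here are 10 feedback and output genes of ERK signalling, taken by name from the deposited expression table: 4 MAP kinase phosphatases (Dusp1, Dusp4, Dusp5 and Dusp6), 3 Sprouty genes (Spry1, Spry2 and Spry4), 2 Spred genes (Spred1 and Spred2) and the transcription factor gene Etv5. They are 10 of the 45724 genes in the table, and each was present as 1 row. RNA was measured in 16 libraries of primary neurons cultured from the brains of newborn C57BL/6 mice (postnatal day 0). Cultures received either DPBS, the buffered saline that served as the control, or the peptide NP24, Tβ10 or Tβ4, with 4 libraries in each of the 4 groups. The series' design text describes the peptides as derived from the SCO, here read as the subcommissural organ, a secretory gland of ependymal cells in the roof of the third brain ventricle. Tβ10 and Tβ4 are the usual short names of thymosin beta 10 and thymosin beta 4, small peptides that bind actin monomers, and NP24 is known here by its code only. No genetic change is named, so all groups share the C57BL/6 background. The labels used here give neither the dose nor the time of exposure, so doses could not be matched between peptides. They also do not say whether the 4 libraries of a group came from separate cultures, and p-values therefore measure only the spread between these libraries.

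ERK, the kinase at the end of the RAS, RAF and MEK cascade, is switched on by growth factor receptors and, in neurons, by neurotrophins and by calcium entry. Active ERK raises transcription of genes whose products then damp the cascade. Dual-specificity phosphatases remove the activating phosphates from MAP kinases, Sprouty proteins interfere with signalling between receptor and RAF, and Spred proteins bring the RAS inhibitor neurofibromin to the membrane. Etv5 belongs to the ETS factors that are induced by fibroblast growth factor and ERK signalling, and it is an output of the pathway more than a brake on it. The mRNA levels of these genes are widely used as a readout of ERK activity, although several also respond to other inputs, such as calcium and cyclic AMP in the case of Dusp1.

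RefSeq promoter windows of GRCm38.p6, which run from 250 bases before a transcription start to 50 bases after it, were matched by symbol for 8 of the 10 genes (9 windows, since Etv5 has a pair); Dusp4 and Spry4 had no entry. The 250 bases before the start are shown for Dusp1, Dusp6 and Spry2, which carry most of the differences reported here, and for Dusp5, whose window was the only one of the 8 genes' with CArG boxes. Each is written 5′ to 3′ on the strand of its gene: chr17:26508473-26508722 for Dusp1 (minus strand), chr10:99262981-99263230 for Dusp6 (plus), chr14:105896820-105897069 for Spry2 (minus) and chr19:53528895-53529144 for Dusp5 (plus). Capitals mark matches, on either strand, to the cyclic AMP response element (CRE, TGACGTCA) and its short form (TGACG), to an ETS core (CGGAAG) and to the CArG box that serum response factor binds.
Dusp1: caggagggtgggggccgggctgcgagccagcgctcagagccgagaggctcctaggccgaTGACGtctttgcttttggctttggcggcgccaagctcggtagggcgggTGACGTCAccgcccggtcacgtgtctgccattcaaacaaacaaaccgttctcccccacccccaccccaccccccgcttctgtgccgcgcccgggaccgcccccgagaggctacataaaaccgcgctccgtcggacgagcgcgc
Dusp6: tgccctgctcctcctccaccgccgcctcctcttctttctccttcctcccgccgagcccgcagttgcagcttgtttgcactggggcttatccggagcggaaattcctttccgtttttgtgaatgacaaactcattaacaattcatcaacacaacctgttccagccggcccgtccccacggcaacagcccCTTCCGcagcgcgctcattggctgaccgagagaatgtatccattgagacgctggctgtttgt
Spry2: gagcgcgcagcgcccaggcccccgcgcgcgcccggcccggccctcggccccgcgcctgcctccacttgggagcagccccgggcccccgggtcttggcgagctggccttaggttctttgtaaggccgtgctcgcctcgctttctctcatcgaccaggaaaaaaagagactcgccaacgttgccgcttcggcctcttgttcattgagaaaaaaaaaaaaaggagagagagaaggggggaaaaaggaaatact
Dusp5: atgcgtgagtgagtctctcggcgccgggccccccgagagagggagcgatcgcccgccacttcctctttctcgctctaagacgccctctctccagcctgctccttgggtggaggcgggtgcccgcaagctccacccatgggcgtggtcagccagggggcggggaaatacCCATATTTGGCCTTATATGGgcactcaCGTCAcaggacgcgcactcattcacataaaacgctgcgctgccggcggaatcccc

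The Dusp1 window held 1 full CRE, which begins 143 bases before the start and itself contains overlapping short forms, and 1 separate short form. A full CRE was present in 1.79% of the 32851 promoter windows in the RefSeq table and in no other of the 8 genes. The Dusp6 window held 1 ETS core, written as CTTCCG on its gene's strand, 62 bases before the start; Spred1 and Spred2 held ETS cores too, against 16.9% of all windows. The Dusp5 window held 2 adjacent CArG boxes, CCATATTTGG and CCTTATATGG, against 1.63% of all windows, and 1 short CRE form. The short form, seen in Dusp1, Dusp5 and Spred2, occurred in 20.8% of all windows. The windows of Spry1, Spry2 and Etv5 held none of the motifs searched, and the AP-1 site TGANTCA, present in 7.81% of all windows, was in none of the 8 genes. These matches describe letters in short windows and were not related to the expression values.

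Between 11642242 and 38254320 reads fell in genes per library. Levels are given in normalized counts, of which a single read made 0.536 to 1.71. Reads per library ranged from 1548 to 4206 for Spred2 but only from 29 to 176 for Dusp5 and from 65 to 235 for Spry1, so the values of the last 2 carry the most counting error. Some libraries stood apart over these genes. Library 1 was the lowest of its group for 7 of the 10 genes in both the control and the Tβ10 group, and Tβ10 library 2 was the highest of its group for 7. Tβ4 library 2 was the lowest of its group for all 4 phosphatases and all 3 Sprouty genes and the highest for Spred1, Spred2 and Etv5. The share of reads from the 2 mitochondrial ribosomal RNAs moved with the groups: 15.3% ± 6.71 (SD, n = 4) with Tβ4, where library 1 reached 24.3%, 11.3% ± 2.07 in controls, 7.15% ± 1.03 with NP24 and 7.20% ± 1.96 with Tβ10.

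Markers of the labelled cell type were abundant, the summed level of 9 neuronal markers being 57201 to 64502 in controls, 64033 to 70936 with NP24, 62839 to 67461 with Tβ10 and 47455 to 74043 with Tβ4. Markers of other cells moved with the groups as well. The summed level of 8 fibroblast and meningeal markers was 2772 to 3618 in controls, 2085 to 2387 with NP24, 1935 to 2588 with Tβ10 and 3360 to 6109 with Tβ4, with Lum listed at 0 in every control library. For 8 endothelial and pericyte markers the sums were 339.9 to 549, 219.6 to 272, 162 to 263 and 652 to 1567 in the same order, with Cldn5 listed at 0 in every NP24 and Tβ10 library. Sums over 10 microglial markers were 1742 to 2052, 1479 to 1606, 1355 to 1844 and 1677 to 2744, and those over 7 radial glial markers 8243 to 11181, 6758 to 8300.1, 6995 to 9338 and 8219.5 to 13108. Sums over 8 astrocyte markers were 8027 to 9727, 9988 to 10641, 8256 to 11495 and 10454 to 13559.6, and those over 8 oligodendrocyte lineage markers 8959 to 11165, 6772 to 8837, 7864 to 9852 and 8104 to 11016. Abundant genes made up most of some sums. In controls Cx3cr1 averaged 1304 in the microglial list, and Fn1 1490 and Pdgfra 1222 in the fibroblast list. With NP24 these averaged 1362, 1057 and 1091. Some scarcer genes moved more, such as Laptm5, at 68.6 in controls and 9.83 with NP24, and Col3a1, at 94.5 and 9.53. With NP24, 6 of 7 microglial and 6 of 6 fibroblast and meningeal markers tested had negative differences. In such bulk RNA, fewer cells of a type and less RNA per cell cannot be told apart. The part of these markers in the differences reported for the feedback genes was not tested.

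In control cultures the 10 genes spanned a wide range of levels per kilobase of exon. Spred2 was highest at 484 ± 47.2 normalized counts per kb (SD, n = 4), and its libraries did not overlap those of Spred1, next at 299.9 ± 7.97. Spry2 (284 ± 35.3) and Dusp4 (249 ± 38.1) followed, and neither neighbour in the order Spred1, Spry2, Dusp4, Etv5 (183 ± 35.3) could be separated from the next by its library values. Dusp1 at 130 ± 11.7 lay below every Etv5 library and above every library of Dusp6, at 98.4 ± 12.6. The lowest levels were those of Spry4 (61.6 ± 16.7), Spry1 (39.9 ± 13.9) and Dusp5 (29.7 ± 5.04), where each overlapped its neighbour. The ranks of some genes varied among the groups: Dusp4 ranked 4 of 10 in controls, 3 with NP24 and 5 with Tβ10 and with Tβ4, and Spry2 ranked 3 in controls and with Tβ10, 4 with NP24 and 2 with Tβ4. Spry4 ranked 8 and Spry1 9 in controls, and the reverse with Tβ10.

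**Figure D1:**
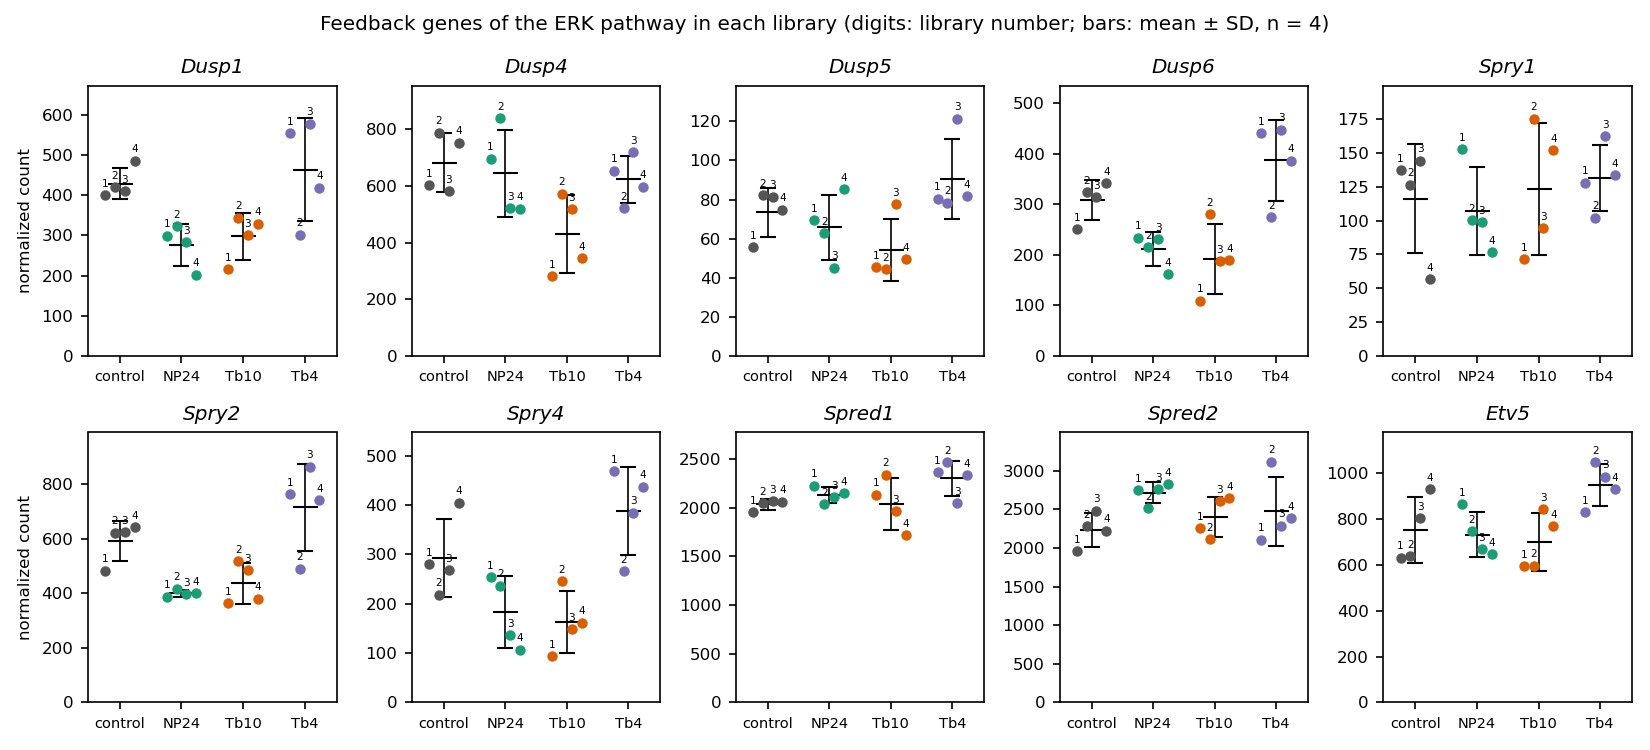
Level of each of the 10 genes in each library, in normalized counts on a linear axis from 0 (Tb10 and Tb4 stand for Tβ10 and Tβ4). Points are libraries with their replicate number and bars give the mean ± SD of 4 libraries. Dusp1, Dusp6, Spry2 and Spry4 have lower means with NP24 and Tβ10 than in controls and their highest means with Tβ4. Spred1 runs from 1719 to 2467 and Spred2 from 1954 to 3118. Every NP24 library of Spred2 lies above every control library.

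Across the 4 groups, Dusp1, Dusp6, Spry2 and Spry4 shared a pattern in which Tβ4 was highest, the control came next and NP24 and Tβ10 were lowest. Dusp6, the cytoplasmic phosphatase that acts selectively on ERK, averaged 388 ± 80.2 normalized counts with Tβ4, 308 ± 39.4 in controls, 211 ± 33.7 with NP24 and 192 ± 70.0 with Tβ10 (SD, n = 4). Spry4 averaged 389 ± 89.2, 293 ± 79.5, 184 ± 72.7 and 162 ± 62.6 in the same order. Spry2 averaged 715 ± 159, 593 ± 73.6, 400.3 ± 12.2 and 437 ± 76.1. Dusp1, a nuclear phosphatase that acts on p38 and JNK as well as ERK, averaged 463 ± 128, 429 ± 38.8, 277 ± 52.5 and 297 ± 57.4. In all 4 genes the libraries of the neighbouring groups Tβ4 and control overlapped, and so did those of NP24 and Tβ10. Etv5 and Dusp5 had the same order of means and were also highest with Tβ4, at 949 ± 92.2 and 90.5 ± 20.7. Spry1 and Spred1 were highest with Tβ4 too, at 131 ± 24.6 and 2305 ± 179. By contrast, Spred2 was highest with NP24, at 2711 ± 135, and Dusp4 in controls, at 682 ± 104.

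With NP24, Dusp1 and Spry2 passed as lower than the control, and no feedback gene passed as higher. Dusp1 (chr17:26505590-26562128, minus strand, GRCm38) stood at 400.5, 419, 410.2 and 486 normalized counts in control libraries 1 to 4 and at 299, 323, 283 and 202 in NP24 libraries 1 to 4. Every NP24 library lay below every control library. The mean was 35.5% lower, a difference of -0.65 ± 0.16 (SE) on the log2(normalized count + 1) scale used for every difference here, with an adjusted p of 0.0335 by limma-trend with Benjamini-Hochberg adjustment over 21774 genes. Spry2 (chr14:105891947-105896819, minus strand) encodes an inhibitor of growth factor receptor signalling. It stood at 483, 623, 624 and 642 in controls and at 387, 417, 398 and 399 with NP24. The NP24 libraries lay close together and below every control library. The mean was 32.5% lower, with a difference of -0.56 ± 0.13 and an adjusted limma p of 0.0250. The 2 of 10 genes that fell compare with 2.63% of all genes tested that passed in either direction and 1.47% that passed as lower.

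Dusp6 (chr10:99263231-99267489, plus strand) showed the same separation with NP24 without passing the limma threshold. It stood at 252, 324, 314 and 343 in control libraries and at 234, 215, 232 and 162 with NP24. All NP24 values lay below all control values, and the difference was -0.55 ± 0.18 with an adjusted limma p of 0.0943. With DESeq2 on the recovered reads it did pass (adjusted p = 0.0397), where the count over all genes rose from 572 to 1178. That was the only 1 of 10 other settings in which Dusp6 passed, and it passed in 0 of 8 fits with 1 library left out. In the authors' deposited table for NP24 its adjusted p was 0.307. Spry4 (chr18:38586247-38601415, minus strand), another receptor-level inhibitor, stood at 280.0, 218, 268 and 405 in controls and at 254, 237, 137 and 107 with NP24. Here the groups overlapped, with 2 NP24 libraries above the lowest control, and the difference of -0.73 ± 0.25 had an adjusted p of 0.118. Spred2 (chr11:19924375-20024026, plus strand) went the other way, at 1954, 2281, 2483 and 2222 in controls against 2747, 2516, 2756 and 2827 with NP24. Its NP24 libraries all lay above its controls, with a difference of 0.28 ± 0.094 and an adjusted limma p of 0.108. In all, 3 of the 10 genes lay wholly below the control libraries and 1 wholly above, where 4.77% of all genes tested lay wholly below and 5.07% wholly above.

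The other genes gave smaller differences from the control with NP24. Dusp4, a nuclear phosphatase, differed by -0.10 ± 0.15, Dusp5, a nuclear phosphatase selective for ERK, by -0.18 ± 0.30, and Spry1 by -0.07 ± 0.30. The intervals of the last 2 were wide, from -0.81 to 0.45 for Dusp5 and from -0.70 to 0.55 for Spry1 (95%). Spred1 differed by 0.07 ± 0.087 and Etv5 by -0.03 ± 0.14, with intervals from -0.11 to 0.25 and from -0.31 to 0.26. Over the 10 genes 8 differences were negative, and their median was -0.14, where the median over all genes tested was -0.0038. All 10 genes passed the filter on low values in every comparison.

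The 2 calls with NP24 depended on which libraries entered the fit. Dusp1 passed in 1 of the 8 fits that each left out 1 library, the one without NP24 library 2, and Spry2 passed in 3, those without control library 1, NP24 library 2 or NP24 library 4. Over all genes the count in these fits ran from 106, without control library 1, to 760, without NP24 library 2. It was 572 with all libraries. The differences themselves kept their sign, from -0.73 to -0.50 for Dusp1 and from -0.65 to -0.52 for Spry2. When the spread was taken from all 16 libraries neither gene passed, with adjusted limma p of 0.160 for Dusp1 and 0.139 for Spry2. In the authors' deposited table for NP24 the adjusted p was 0.109 for Dusp1 and 0.0693 for Spry2, and none of the 10 genes had an adjusted p under 0.05. The mitochondrial ribosomal RNA share did not overlap between these groups (5.98% to 8.12% with NP24 and 9.33% to 14.2% in controls), so it and the peptide cannot be told apart. With that share as a covariate, an alternative chosen after seeing the data, the differences were -0.84 for Dusp1 and -0.83 for Spry2, and none of the 21774 genes tested passed. Markers of other cells were lower with NP24 too. Of those tested, 5 of 6 fibroblast and meningeal, 3 of 7 microglial and 3 of 7 radial glial markers passed as lower. So did 2 of 8 oligodendrocyte lineage markers and 2 of 3 endothelial and pericyte markers, the latter being Rgs5 and Pdgfrb. By contrast, 1 of 8 astrocyte markers passed as higher and 0 of 9 neuronal markers passed.

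**Figure D2:**
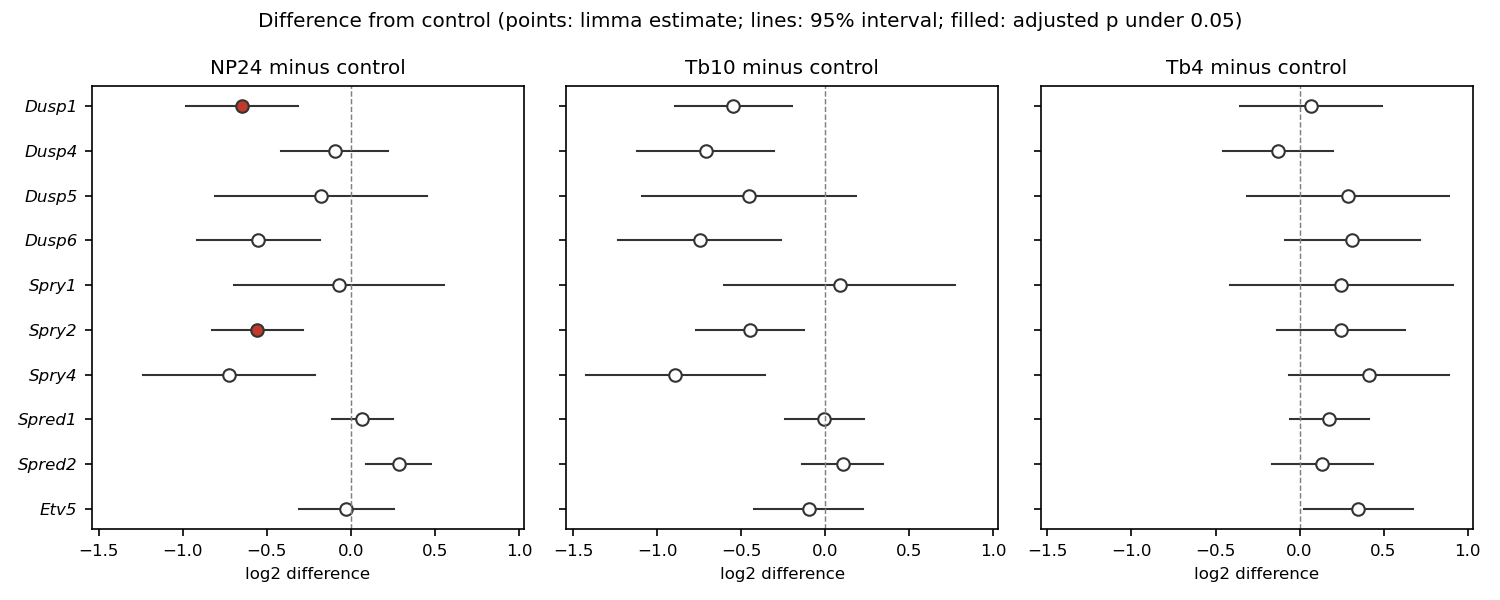
Difference of each gene from the control on the log2(normalized count + 1) scale, in 1 panel for each peptide. Points are limma estimates, lines their 95% intervals, and filled points have an adjusted p under 0.05, which holds for Dusp1 and Spry2 with NP24 only; with Tβ10 the estimates of Dusp1, Dusp4, Dusp6, Spry2 and Spry4 are also below 0.

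With Tβ10, several phosphatase and Sprouty genes were lower on average than in controls, but none of the 10 passed the test, where 0.633% of the 21960 genes tested did. Dusp4 (chr8:34807297-34819894, plus strand) stood at 602, 788, 583 and 754 in controls and at 281, 574, 518 and 346 with Tβ10. Every Tβ10 library lay below every control library, and the mean was 37.0% lower, with a difference of -0.71 ± 0.19 and an adjusted limma p of 0.118. Dusp1 stood at 215, 344, 301 and 329 with Tβ10, again below every control, with a difference of -0.55 ± 0.16 and an adjusted p of 0.164. These were the 2 genes wholly below the control, where 3.95% of all genes tested were. Dusp4 is a nuclear phosphatase of ERK and JNK, and with NP24 its libraries had spanned the range of the controls.

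Dusp6 and Spry4 had larger mean differences with Tβ10 and more spread. Dusp6 stood at 109, 281, 188 and 189, with only library 2 above the lowest control, and differed by -0.75 ± 0.23 (adjusted p = 0.175, limma). Spry4 stood at 93.8, 245, 149 and 162, again with only library 2 above the lowest control, and differed by -0.89 ± 0.25 (adjusted p = 0.135, limma). Spry2 stood at 363, 517, 485 and 380.3 and differed by -0.45 ± 0.15 (adjusted p = 0.237, limma). Libraries 2 and 3 of Tβ10 lay above the lowest control for Spry2. Dusp5 differed by -0.45 ± 0.30, with an interval from -1.09 to 0.18. Spry1, Spred1, Spred2 and Etv5 differed by 0.09 ± 0.33, -0.0049 ± 0.11, 0.10 ± 0.11 and -0.10 ± 0.16. The 10 genes had 8 negative differences with a median of -0.45, where all genes tested had a median of -0.0049, and 5 of the 10 had an unadjusted limma p under 0.05 against 11.2% of all genes.

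Feedback genes passed against the control only in the fit that left out Tβ10 library 2. Without it, Dusp4, Dusp6 and Spry4 passed, with adjusted limma p of 0.0130, 0.0224 and 0.0144 and differences of -0.87, -0.96 and -1.12, while the count over all genes rose from 139 to 315. Library 2 was the highest of its group for each of these genes, so leaving it out could only enlarge their differences. The count over all genes also rose without Tβ10 library 1, to 252. No gene of the 10 passed when any other library was left out, and none passed with edgeR or DESeq2 on the recovered reads. In the authors' deposited table for Tβ10, Dusp4 had the lowest adjusted p of the 10, at 0.117. The mitochondrial ribosomal RNA share was 4.76% to 9.53% with Tβ10, overlapping the controls only in library 2. Of the other cells' markers tested, 3 of 6 fibroblast and meningeal, 1 of 8 microglial and 1 of 7 radial glial passed as lower. So did 2 of 4 endothelial and pericyte markers, Rgs5 and Pdgfrb, while 1 of 8 astrocyte markers passed as higher. Endothelial Pecam1, which did not pass, averaged 30.9 with Tβ10 and 69.4 in controls. Cdh5 and Kdr were too low to test, at 10.8 and 10.6 with Tβ10 against 4.05 and 4.26 in controls.

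With Tβ4, no feedback gene passed against the control, and neither did any of the 22205 genes tested (0.0%). At an unadjusted limma p under 0.05 there were 1568 genes, and the adjusted count was 0 with edgeR and 82 with DESeq2, none of them among the 10. Differences were positive for 9 of the 10 genes, with a median of 0.25 against -0.0033 over all genes tested. Etv5 had the lowest p: it stood at 632, 638, 806 and 932 in controls and at 830.4, 1048, 986 and 932 with Tβ4. The groups overlapped, and the difference of 0.35 ± 0.15 had an unadjusted p of 0.0359 and an adjusted limma p of 0.675. Spry4, at 468, 266, 385 and 438 with Tβ4, differed by 0.41 ± 0.22, and Dusp6, at 441, 275, 448 and 387, by 0.31 ± 0.19. Spry2 stood at 765, 491, 864 and 741 and differed by 0.25 ± 0.18. In each of these 3 genes Tβ4 library 2 lay within the range of the controls and well below the other Tβ4 libraries. Without that library the differences were 0.59 for Spry4, 0.47 for Dusp6 and 0.42 for Spry2, and 354 genes of the table passed but still none of the 10.

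For the remaining genes the intervals against the control included 0. Dusp1, at 554, 302, 578 and 419 with Tβ4, differed by 0.07 ± 0.20, with an interval from -0.35 to 0.49, and its Tβ4 libraries lay on both sides of the controls. Dusp5, at 80.5, 78.3, 121 and 81.6, differed by 0.29 ± 0.28, and Spry1 by 0.25 ± 0.31. Spred1 differed by 0.18 ± 0.11 and Spred2 by 0.14 ± 0.14. Dusp4 was the only negative difference, at -0.13 ± 0.15. Of the markers of other cells, 0 passed in any list with Tβ4, although the sums over fibroblast and endothelial markers given above were higher and more variable than in controls. The 3 comparisons with the control share its 4 libraries, so their values are not independent of each other.

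**Figure D3:**
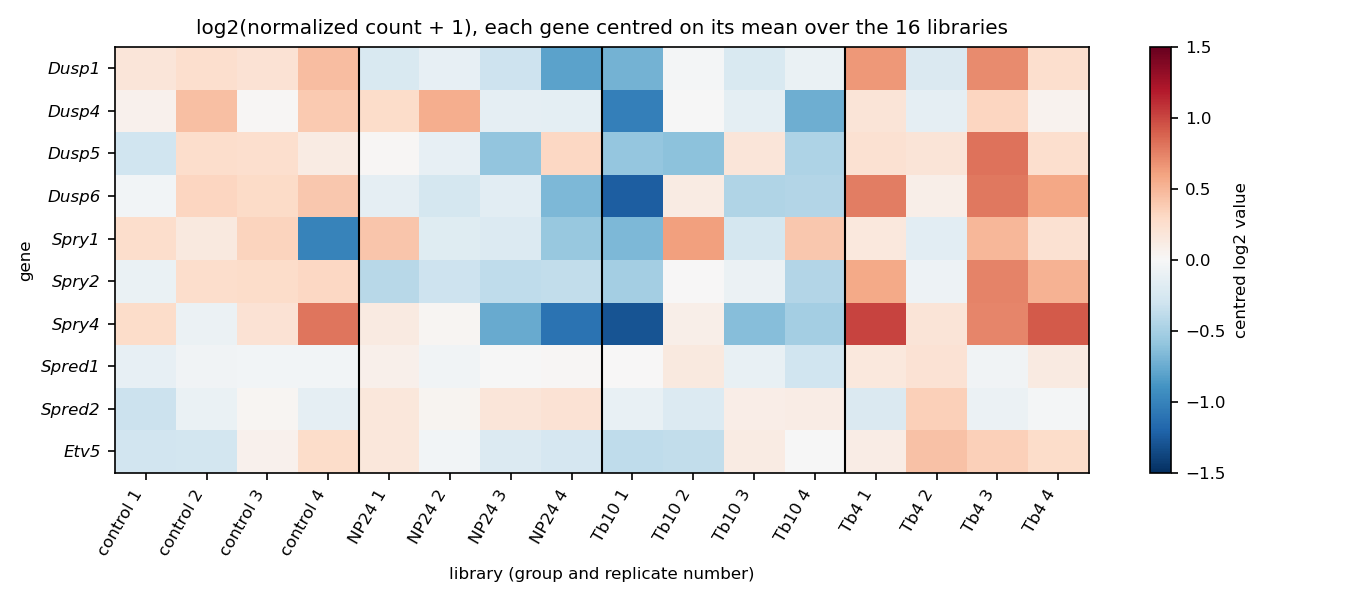
Level of each gene in each library as log2(normalized count + 1), centred on the gene's mean over the 16 libraries; rows are genes, columns are libraries by group and replicate number, and colour runs from -1.5 (blue) to 1.5 (red). Dusp1, Dusp6, Spry2 and Spry4 are mostly blue under NP24 and Tβ10 and red under Tβ4 libraries 1, 3 and 4, with Tβ10 library 1 the lowest for Dusp6 and Spry4.

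For the differences among peptides a single model took in all 16 libraries, without the control entering the difference. Relative to NP24, 2 of the 3 Sprouty genes, Spry2 and Spry4, were higher with Tβ4, and Spry1 did not pass. For Spry2 the difference of NP24 from Tβ4 was -0.81 ± 0.16 (adjusted p = 0.0120, limma) and its mean was 44.0% lower with NP24. For Spry4 the difference was -1.14 ± 0.29 (adjusted p = 0.0441, limma) and its mean was 52.8% lower. All NP24 libraries of both genes lay below all Tβ4 libraries, as did those of Dusp6, where 4.65% of the 24232 genes tested were so separated. Dusp6 differed by -0.87 ± 0.23 (adjusted p = 0.0519) and Dusp1 by -0.72 ± 0.20 (adjusted p = 0.0650), both just outside the limma threshold. The 2 of 10 that passed compare with 2.09% of all genes in either direction and 1.65% lower with NP24. Etv5 (-0.38 ± 0.15), Dusp5 (-0.47 ± 0.29) and Spry1 (-0.32 ± 0.32) had negative differences that did not pass. Dusp4 (0.03 ± 0.20), Spred1 (-0.11 ± 0.11) and Spred2 (0.15 ± 0.12) lay nearer 0.

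Against Tβ10, Tβ4 had higher Dusp6, Spry2 and Spry4. Dusp6 was 2.02 times as high by its means, with a difference of 1.06 ± 0.23 (adjusted p = 0.0216, limma). Spry4 was 2.40 times as high, with a difference of 1.30 ± 0.29 (adjusted p = 0.0263, limma), and all of its Tβ4 libraries lay above all Tβ10 libraries. Spry2 was 1.64 times as high, with a difference of 0.70 ± 0.16 (adjusted p = 0.0340, limma). Tβ10 library 2 and Tβ4 library 2 met in the overlap of Dusp6, at 281 and 275, and of Spry2, at 517 and 491. These 3 of 10 genes compare with 1.35% of all genes passing in either direction and 1.05% passing as higher with Tβ4. All 10 differences were positive, with a median of 0.60 against 0.0020 over all genes. Dusp1 (0.61 ± 0.20), Dusp4 (0.58 ± 0.20), Dusp5 (0.74 ± 0.29) and Etv5 (0.45 ± 0.15) had an unadjusted limma p under 0.05 but adjusted p between 0.149 and 0.256. Dusp5 joined Spry4 in having no overlap, at 78.3 to 121 with Tβ4 and 44.4 to 77.5 with Tβ10, where 4.02% of all genes were so separated. Spred1 (0.18 ± 0.11), Spred2 (0.03 ± 0.12) and Spry1 (0.16 ± 0.32) differed least.

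NP24 and Tβ10 did not differ by the test in any of the 24232 genes (0.0%), with 591 genes at an unadjusted limma p under 0.05 and 0 at the adjusted threshold with edgeR or DESeq2. Dusp4 was the only feedback gene at an unadjusted p under 0.05, being higher with NP24 by 0.61 ± 0.20, with an interval from 0.19 to 1.03 and an adjusted limma p of 1.00. Its libraries stood at 697, 839, 523 and 520.3 with NP24 and at 281, 574, 518 and 346 with Tβ10, with Tβ10 library 2 above the lowest NP24 libraries. For the genes low with both peptides the intervals were wide: -0.45 to 0.23 for Spry2, -0.52 to 0.32 for Dusp1, -0.28 to 0.67 for Dusp6 and -0.44 to 0.77 for Spry4. Equal levels under the 2 peptides were therefore not shown.

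**Figure D4:**
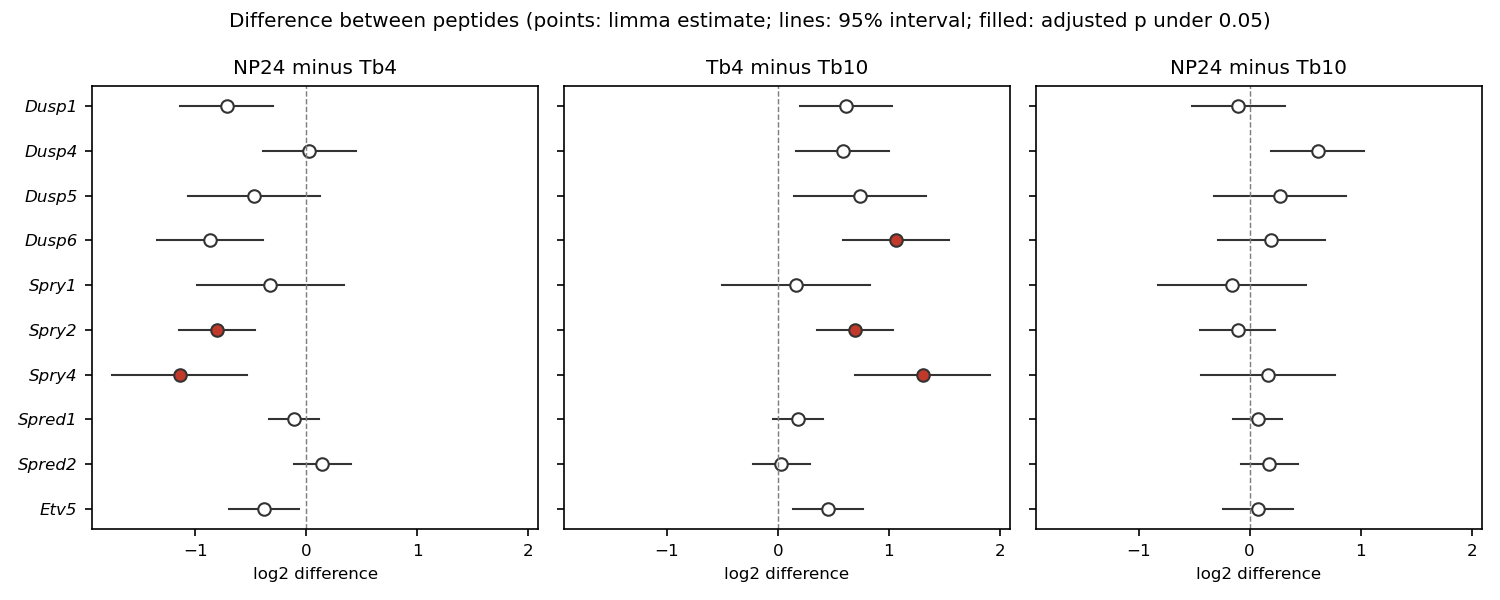
Difference between peptides for each gene on the log2(normalized count + 1) scale, in 1 panel per pair. Points are limma estimates from the fit of 16 libraries, lines their 95% intervals, and filled points have an adjusted p under 0.05: Spry2 and Spry4 between NP24 and Tβ4, and Dusp6, Spry2 and Spry4 between Tβ4 and Tβ10.

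Calls between peptides also moved with single libraries. Between NP24 and Tβ4, Spry2 passed in 7 of 8 fits with 1 library of the pair left out, failing only without Tβ4 library 1 (limma, adjusted p = 0.0637), and Spry4 passed in 3. Between Tβ4 and Tβ10, Dusp6 and Spry4 passed in 3 of 8 and Spry2 in 2 of 8. Leaving out Tβ4 library 2 lowered the adjusted p of each of these calls. That library was the lowest of its group for Dusp1, Dusp6, Spry2 and Spry4, so leaving it out could only enlarge their differences. Dusp1, Dusp6, Spry2 and Spry4 then passed in both comparisons, 4 of the 10 genes each time, while the count over all genes rose from 507 to 1392 between NP24 and Tβ4 and from 326 to 1052 between Tβ4 and Tβ10. The spread of only the 8 libraries of a pair left 0 of the 10 genes past the threshold, with adjusted limma p of 0.0624 for Spry2 between NP24 and Tβ4 and of 0.0863 for Spry4 between Tβ4 and Tβ10. With the mitochondrial ribosomal RNA share as a covariate 0 of the 10 passed as well, and the differences were -0.57 for Spry2 between NP24 and Tβ4 and 1.01 for Spry4 between Tβ4 and Tβ10. Scaling by library size shifted the median difference of all genes by 0.13 between NP24 and Tβ4 and by -0.18 between Tβ4 and Tβ10. With that scaling Dusp6 and Spry4 passed between Tβ4 and Tβ10 but Spry2 did not (limma, adjusted p = 0.0997), and between NP24 and Tβ4 Spry2 passed but Spry4 did not (limma, adjusted p = 0.0557). Markers of other cells moved in these pairs too: 5 of 6 fibroblast and meningeal markers tested were lower with NP24, and 5 of 6 lower with Tβ10, than with Tβ4. The counts were 5 of 10 and 6 of 10 for microglial and 3 of 7 and 1 of 7 for radial glial markers. For endothelial and pericyte markers they were 2 of 5 and 2 of 5, Rgs5 and Pdgfrb in both pairs.

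**Figure D5:**
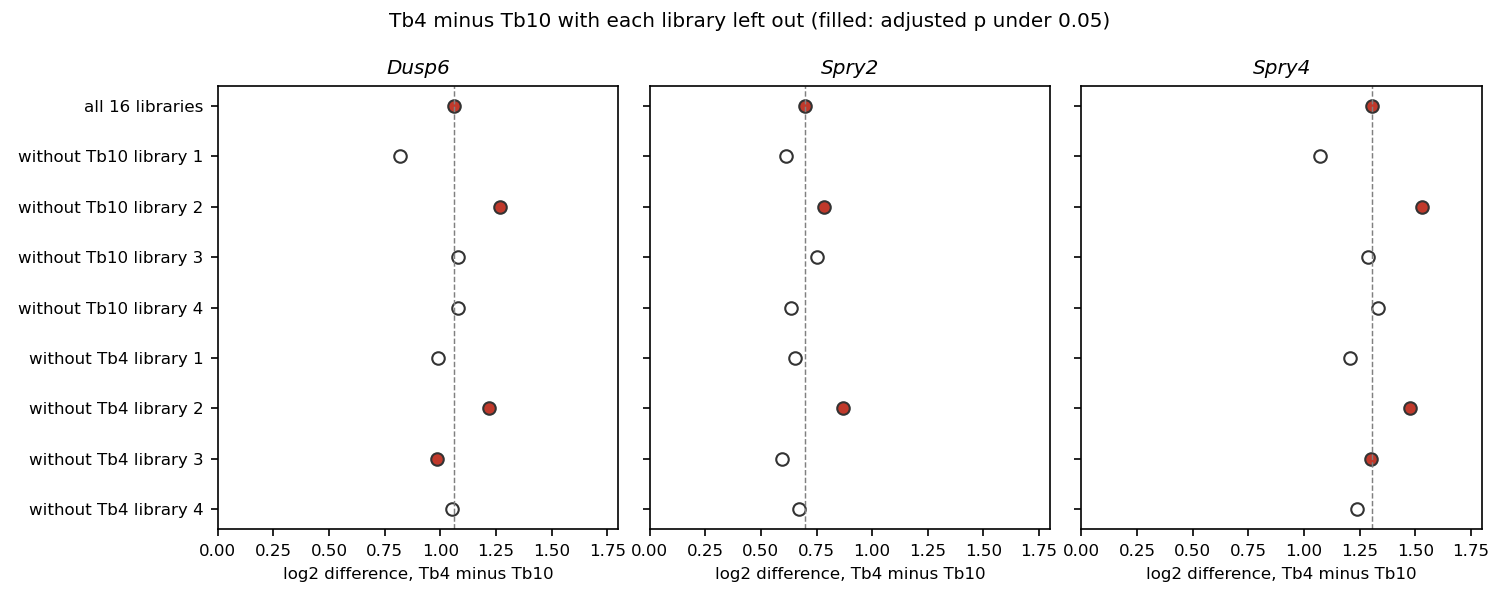
Difference between Tβ4 and Tβ10 on the log2(normalized count + 1) scale for Dusp6, Spry2 and Spry4 with all libraries and with each of the 8 libraries of the pair left out. Filled points have an adjusted limma p under 0.05 and the dashed line marks the value with all libraries; every difference stays above 0, and filled points remain without library 2 of either group.

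The other genes of the pathway were read from lists of its components. Among 12 other MAP kinase phosphatase genes tested, none passed against the control with any peptide. Dusp10, a phosphatase for p38 and JNK, came closest, at 258 normalized counts on average in controls and 181 with NP24, against 159 with Tβ10 and 332 with Tβ4. It did pass between peptides, by -0.89 ± 0.17 for NP24 against Tβ4 (adjusted p = 0.00791) and 1.06 ± 0.17 for Tβ4 against Tβ10 (adjusted p = 0.00209), both with limma. None of 14 further Sprouty, Spred and RAS inhibitor genes passed against the control. Lrig1, a receptor inhibitor, passed as lower with NP24 than with Tβ4 (-0.53 ± 0.14, limma, adjusted p = 0.0492). The phosphatase and inhibitor genes outside the 10 gave 0 calls against the control, with list medians between -0.11 and 0.06.

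Among 20 other ERK output genes tested, Egr1 and Ier2 fell with NP24 and with Tβ10. Egr1, an immediate early transcription factor gene, averaged 2246 ± 624 normalized counts with Tβ4, 1802 ± 116 in controls, 662 ± 212 with NP24 and 618 ± 181 with Tβ10 (SD, n = 4). Its differences were -1.51 ± 0.17 with NP24 (adjusted p = 7.21e-05) and -1.59 ± 0.17 with Tβ10 (adjusted p = 0.000123), larger than that of any of the 10 feedback genes in those comparisons. Ier2, another immediate early gene, differed by -1.07 ± 0.29 (adjusted p = 0.0468) and -1.43 ± 0.30 (adjusted p = 0.0359), all by limma. With 1 library left out, the count of this list was 1 in place of 2 in 7 of 8 fits with NP24 and in 6 of 8 with Tβ10. Fos and Fosb, which did not pass against the control, rose with Tβ4 relative to Tβ10, by 1.64 ± 0.25 (adjusted p = 0.00156) and 1.64 ± 0.33 (adjusted p = 0.0140). In all, 4 of 21 output genes were higher with Tβ4 than with Tβ10 and 2 of 21, Egr1 and Fos, were lower with NP24 than with Tβ4.

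The kinases and adaptors of the cascade itself gave no call: 0 of 24 genes of the RAS, RAF, MEK and ERK core and 0 of 12 JNK and p38 kinase genes passed in any of the 6 comparisons. With NP24 the core count was 2 with DESeq2 or with scaling by library size. Among growth factor genes, 3 of 20 fell with NP24: Nrg1 (-0.79 ± 0.12, adjusted p = 0.000877), a ligand of ERBB receptors, Vegfa (-0.86 ± 0.13, adjusted p = 0.000934), and Ntf3 (-0.51 ± 0.14, adjusted p = 0.0497), a neurotrophin. Vegfa also fell with Tβ10 (-0.84 ± 0.12, adjusted p = 0.00178), as 1 of 20. Bdnf, the ligand of the neurotrophin receptor TrkB, was lower with NP24 than with Tβ4 (-1.49 ± 0.29, adjusted p = 0.00917) and higher with Tβ4 than with Tβ10 (1.61 ± 0.29, adjusted p = 0.00558). Igf2 and Vegfa passed in the same direction in both pairs, all by limma.

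Among receptor tyrosine kinases, Pdgfrb, which marks pericytes, fell with NP24 (-0.95 ± 0.21, adjusted p = 0.0166) and Tβ10 (-0.97 ± 0.20, adjusted p = 0.0326), and Ntrk2, which encodes TrkB, rose with NP24 (0.34 ± 0.085, adjusted p = 0.0339). These were 2 of 16 tested with NP24 and 1 of 17 with Tβ10, by limma. Between NP24 and Tβ4 the receptor genes Egfr, Fgfr1 and Pdgfrb were lower with NP24 (3 of 17), and between Tβ4 and Tβ10 Pdgfrb was higher and Met lower with Tβ4. With 1 library left out, the receptor count was 0 to 2 with NP24 and 0 to 1 with Tβ10. No gene of the output, ligand or receptor lists passed with Tβ4 against the control, and 2 of each list did without Tβ4 library 2.

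Finally, for each of the 2 genes that passed against the control, the 3 genes with the most similar course over the 16 libraries were found among 12589 genes. Likeness was the root mean square difference of centred log2(normalized count + 1). Nearest to Dusp1 were Junos (0.14), an antisense gene of Jun, Psat1 (0.17), a serine synthesis enzyme, and Acadl (0.18), a mitochondrial fatty acid dehydrogenase; the root mean square of Dusp1's own centred values was 0.42. Nearest to Spry2 were Eln (0.14), which encodes elastin, Phyh (0.15) and Fam110a (0.18), against an own value of 0.39. The places of the feedback genes in each other's orders, and the nearest genes of Dusp6 and Spry4, were read after the values were seen. For Dusp6, Dusp1 took place 1 of all 12589, Spry2 place 4 and Spry4 place 29. Places 2 and 3 went to Vim, a gene of the radial glial list, and Msn. For Spry4, Vim took place 1 and Ezr place 2. Dusp6 followed at place 3, Dusp1 at place 28 and Spry2 at place 113. The order was not mutual: Spry4 took place 1517 for Dusp1 and 4765 for Spry2. Dusp1 took place 7 and Dusp6 place 74 for Spry2, and Spry2 took place 11 and Dusp6 place 41 for Dusp1. For Dusp5, Etv5 took place 16 and Spry2 place 27, but Dusp5 took place 2229 for Etv5 and 481 for Spry2. Even the gene nearest to Dusp5 differed by 0.24, against an own value of 0.39. Spred2 took place 8592 for Dusp1 and 7677 for Dusp6, and Spry1 took places 6055 and 3703. These places describe 16 libraries that share their groups and are not a test.

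Overlapping genes limit 3 of the 10. In the GENCODE M21 annotation of GRCm38, Dusp5 shared 547 exon bases (22.1% of its exon length) with the opposite-strand gene AC137853.2, which averaged 12.9 normalized counts. Spry1 shared 710 exon bases (24.4%) with Gm42922 at 13.4, and Dusp1 shared 11 bases (0.33%) with Ergic1 at 2369. Whether reads were counted by strand is not given in the sources used here, so small amounts of reads of these genes could not be told apart.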

How the data were processed

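Total RNA of cultured neurons was sequenced after library preparation with a stranded total RNA kit, per the labels' protocols. The submitters' processing notes name FastQC, HISAT (or HISAT2), featureCounts, DESeq2 and the genome build GRCm38, and neither versions nor the strand setting of the counting are given in the sources used here. Each deposited value of a library is a normalized count, treated as signal: reads per gene after division by that library's size factor. In each library 100% of the nonzero values were whole multiples of what 1 read is worth (tolerance 0.01 reads), so whole reads were recovered. The deposited tables also hold, per the file headers, the authors' log2 fold changes with standard errors, Wald statistics (a score) and p-values, printed only where the authors' table is named.

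Differences were tested with limma-trend (R 4.3.3, limma 3.58.1) on log2(normalized count + 1), a scale that understates changes of low genes, for genes that reached 10 normalized counts in 4 or more libraries of the fit, with Benjamini-Hochberg adjustment over all genes tested and 0.05 as the threshold. Fits of 8 libraries compared a peptide with the control, and 1 fit of all 16 compared the peptides among themselves. Groups and replicate numbers came from the sample titles. Alternatives were count tests of the recovered reads (edgeR 4.0.16, DESeq2 1.42.0), 2 other scalings, pseudocounts of 0.1 and 10, no filter, a replicate block, another set of libraries for the spread, and each library left out. Only the fits of a peptide against the control were tried on simulated data, with the same dispersion for every gene. The fit of all 16 libraries was not. The 10 genes and the lists were chosen with earlier results of these data known. All 10 were named in every comparison, with up to 4 genes of each pathway list of smallest p (1 gene is not reported here), and the 3 genes most alike for those that passed against the control. Other list genes, those named between peptides or in the closing section among them, were chosen after their values were seen. Gene lengths and positions came from GENCODE M21, promoters from RefSeq. For Dusp1 the GENCODE span, to 26562128 on chr17, reaches upstream beyond the RefSeq start whose window is chr17:26508473-26508722. Its exon length of 3311 bases was taken over all exons of that span. Printed intervals are 95% intervals of the fit.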

Additional observations from a re-analysis of the deposited data

Results flagged for a closer look

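In 4 of the 40 sets of 4 libraries examined (10 genes in 4 groups), the highest or lowest library stood far from the other 3 by Dixon's criterion, which chance alone meets in about 1 in 20 sets. For Dusp5 these were Tβ10 library 3, at 77.5 normalized counts against 44.4 to 49.5 in the others, and Tβ4 library 3, at 121 against 78.3 to 81.6. Control library 1 was far below the others for Spry2, at 483 against 623 to 642, and for Spred1, at 1954 against 2051 to 2068.

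Effects of 2 peptides differed by a test of the difference itself (limma over all genes, 16 libraries) for 3 genes. Spry2 differed by -0.81 (adjusted p = 0.0120) and Spry4 by -1.14 (adjusted p = 0.0441) between NP24 and Tβ4. Between Tβ4 and Tβ10, Dusp6 differed by 1.06 (adjusted p = 0.0216), Spry2 by 0.70 (adjusted p = 0.0340) and Spry4 by 1.30 (adjusted p = 0.0263). Each difference against the control lay on opposite sides of 0 for the peptides of these pairs, but in the comparisons with the control only Spry2 with NP24 had passed. The calls rest on different spreads, from 16 libraries between peptides and from 8 against the control. With 16 libraries throughout, Spry2 with NP24 did not pass against the control (limma, adjusted p = 0.139). With 8 libraries throughout, no feedback gene passed between peptides.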

How the results depend on the processing

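The number of the 10 genes past the threshold moved with the settings. For NP24 against control it was 2, and 3 with DESeq2 (Dusp6 added), 0 with the spread of all 16 libraries or with the mitochondrial ribosomal RNA share as a covariate (chosen after seeing the data), and 0 to 2 with 1 library left out. For NP24 against Tβ4 it was 2, and 4 with DESeq2, 3 with edgeR or a pseudocount of 10, 1 with scaling by library size or no filter, 0 with the 8 libraries of the pair alone or with the covariate, and 0 to 4 with 1 library left out. For Tβ4 against Tβ10 it was 3, and 2 with scaling by library size, 1 with no filter, 0 with the 8 libraries alone or with the covariate, and 0 to 4 with 1 library left out. For Tβ10 against control it was 0, and 0 to 3 with 1 library left out. For Tβ4 against control and NP24 against Tβ10 it was 0 under every setting run. The cause of these shifts was not tested.

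With the replicate number as a block the counts were 2 for NP24 against control, 1 for NP24 against Tβ4 (Spry2), 1 for Tβ4 against Tβ10 (Dusp6) and 0 in the other comparisons. The labels do not say that the numbers pair samples. Of 24 same-numbered pairs of libraries only 1 had a correlation of deviations over 0.1 (range -0.302 to 0.113). Differently numbered libraries reached 0.453 (Tβ10 library 1 with Tβ4 library 2) and -0.307 (Tβ10 library 1 with Tβ4 library 3). Such correlations cannot exclude a shared culture or run, so no conclusion about pairing is drawn.

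Signs reversed only in differences that had not passed. With scaling by library size these were Etv5 with NP24 (0.026) and Spred1 with Tβ10 (0.091) and Dusp1 with Tβ4 (-0.020) against the control, Spred1 for NP24 against Tβ4 (0.033), and Spry1 (-0.020), Spred1 (-0.0028) and Spred2 (-0.15) for Tβ4 against Tβ10. Spred1 with Tβ10 was 0.011 with edgeR and 0.0092 with DESeq2. With the covariate, Spred1 was -0.0019 with NP24 and 0.13 with Tβ10, Spred2 -0.16 with Tβ10 and -0.15 for NP24 against Tβ4, and Dusp1 -0.12 with Tβ4. With 1 library left out, differences from the control ranged from -0.38 to 0.072 for Spry1 and -0.11 to 0.082 for Etv5 with NP24, from -0.23 to 0.32 for Spry1, -0.074 to 0.074 for Spred1 and -0.19 to 0.010 for Etv5 with Tβ10, and from -0.053 to 0.26 for Dusp1 and -0.064 to 0.38 for Spry1 with Tβ4. Between NP24 and Tβ10 they ranged from -0.25 to 0.041 for Dusp1, -0.046 to 0.40 for Dusp6, -0.39 to 0.040 for Spry1, -0.070 to 0.39 for Spry4, -0.0067 to 0.14 for Spred1 and -0.012 to 0.17 for Etv5. The ranges were -0.11 to 0.12 for Dusp4 between NP24 and Tβ4, and -0.068 to 0.36 for Spry1 and -0.084 to 0.10 for Spred2 between Tβ4 and Tβ10.

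Over all genes, NP24 against control gave 319 lower and 253 higher calls, and 256 and 505 with scaling by library size. Tβ10 against control gave 117 and 22, and 67 and 55 with that scaling. NP24 against Tβ4 gave 400 and 107, and 269 and 362. Tβ4 against Tβ10 gave 72 and 254, and 443 and 164. Totals of 572, 139, 507 and 326 in these 4 comparisons became 1178, 432, 1172 and 813 with DESeq2 and 365, 102, 338 and 184 with no filter. With the spread of the other set of libraries they were 120, 62, 109 and 77, with the covariate 0, 0, 7 and 10, and with the block 477, 91, 341 and 214. Counts of 29 to 176 reads for Dusp5 and 65 to 235 for Spry1 limit what could be detected for these genes.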

Other observations

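Levels per kilobase of exon place the 4 phosphatase genes among their relatives. In control libraries Dusp8, a phosphatase of JNK and p38 that is abundant in brain, was higher than any of them, at 462 normalized counts per kb on average, and 2250 ± 299 normalized counts (SD, n = 4) before division by length. Dusp4 followed at 249 per kb and Dusp1 at 130 per kb. Dusp6 (98.4 per kb) lay near Dusp26 (97.1), Dusp7 (92.6), Dusp3 (85.6) and Dusp10 (84.7), and Dusp2, a phosphatase best known from lymphocytes, was at 8.03 per kb. Dusp8 stood at 448 per kb with NP24, 432 with Tβ10 and 398 with Tβ4, and did not pass in any comparison. Dusp16, another phosphatase of JNK and p38, averaged 584 ± 106 normalized counts with Tβ4, 439 ± 86.5 in controls, 394 ± 30.1 with NP24 and 386 ± 39.1 with Tβ10. It did not pass either, with adjusted limma p of 0.0681 between NP24 and Tβ4 and 0.0653 between Tβ4 and Tβ10.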
